A study of Mus musculus with 50 samples.

Results

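Macrophages and other cells recognise and take up dying cells and altered lipoproteins through a set of receptors and bridging proteins, of which 10 were followed here. They were chosen by name and function, with no threshold on a measured value but with earlier results of these data known. They are 3 receptor tyrosine kinases (Mertk, Axl, Tyro3), their ligands (Gas6, Pros1), the bridging protein Mfge8 and 4 scavenger receptors (Cd36, Stab1, Msr1, Marco), out of 21954 genes in the tables. All 10 were tested in macrophages, and 9 passed the filter on low counts in digits, where Marco did not. RNA sequencing was available for 9 macrophage libraries and 41 digits, 1 library per culture or digit. The macrophages were grown from bone marrow of female C57BL/6 mice 6 to 8 weeks of age. After growth in complete medium, all were treated in basal medium. M1 cells received 20 ng/ml interferon gamma and 100 ng/ml lipopolysaccharide for 24 hours, and M2 cells 20 ng/ml interleukin 4 for 24 hours. M0 cells received basal medium alone, with 3 libraries of each state. The labels call M0 the baseline and give it no time in culture. The digits were the third hindlimb digits of male C57Bl/6 mice 9 to 10 weeks of age, cut through the distal phalanx (P3), and the tissue is the wound bed with all its cell types. The 29 non-regenerative digits were taken at 0 hours, after 3, 6, 12 or 24 hours, or after 3, 7, 14 or 21 days, with 5 digits for day 7 and 3 for every other time. Of the 12 intermediate digits, 3 each came from 0 hours, 24 hours, 14 days and 21 days. The labelled share of the phalanx removed was 60 to 80% in the non-regenerative digits, of which 12 are labelled 67% or lower, and 41 to 55% in the intermediate digits. Nothing in the labels says that M0, M1 and M2 libraries came from separate mice, so p-values measure the spread between these libraries. Regenerative digits were not analysed here.

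Uptake of apoptotic cells, called efferocytosis, starts when phosphatidylserine appears on the outside of a dying cell. Gas6 and protein S (Pros1) bind this lipid and the receptors MERTK, AXL and TYRO3, and MFGE8 links it to integrins. Scavenger receptors form a looser group. CD36 binds oxidised lipoproteins and fatty acids, stabilin 1 (Stab1) is an endocytic receptor of resident macrophages and some endothelium, and MSR1 and MARCO are class A receptors for modified lipoproteins and bacteria. In a wound, macrophages clear spent neutrophils by this route.

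The 10 genes lie on chromosomes 1, 2, 5, 7, 8, 14 and 16 of GRCm38. Gas6 (chr8:13465374-13494490, minus strand) and Stab1 (chr14:31139013-31168641, minus strand) each share exon bases with a protein-coding gene on the other strand. Whether reads were counted by strand is not given in the sources used here. The partner of Gas6, Tmem255b, was listed at 0 to 0.181 normalized TPM in M0 macrophages, and Nt5dc2, the partner of Stab1, at 61.6 to 63.8. In non-regenerative digits Nt5dc2 was at 25 to 42 at 0 hours, 26.3 to 46.3 at 24 hours and 34.7 to 524 at 14 days. Stab1 was at 23.5 to 30.3, 40.1 to 54.9 and 31.3 to 202 at these times. The value of 202 is from replicate 2 at 14 days, a digit described below as standing apart and scaled up. Without the 2 digits that stand apart, Stab1 reached at most 77.4 in non-regenerative digits at 7, 14 and 21 days. Promoter sequence from RefSeq (GRCm38.p6, 250 bases before to 50 after the start) was matched by symbol for 9 of the 10 genes, all but Msr1. Of 13 short motifs searched on both strands, those of factors that act behind the stimuli used on the macrophages are shown in 3 genes that changed there. Capitals mark, in Marco, a match at position -30 to the NF-kB motif, GGG and TTTCC with 2 bases between them, which 1.63% of all 32851 promoters hold. In Cd36 they mark a match at position 21 to the STAT6 motif, TTC and GAA with 4 bases between them, held by 6.95% of promoters. In Pros1 they mark 1 match to the STAT6 motif and 1 to TTCNNNGAA, the interferon gamma activated site, held by 8.3%. Gas6, the gene with the largest fall, held none of these 3 motifs and is printed in lower case. Nor did Stab1, Axl, Mertk and Tyro3 hold any of them, each also called in at least 1 macrophage comparison. The Cd36 window lies inside the annotated span of the gene, at a start that RefSeq gives.
Marco (chr1:120504975-120505274, minus strand): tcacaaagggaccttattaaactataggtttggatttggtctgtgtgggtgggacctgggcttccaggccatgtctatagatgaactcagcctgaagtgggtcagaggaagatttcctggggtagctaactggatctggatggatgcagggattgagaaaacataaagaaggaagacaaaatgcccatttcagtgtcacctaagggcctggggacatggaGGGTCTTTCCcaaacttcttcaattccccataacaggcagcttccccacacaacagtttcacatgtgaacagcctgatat
Cd36 (chr5:17835847-17836146, minus strand): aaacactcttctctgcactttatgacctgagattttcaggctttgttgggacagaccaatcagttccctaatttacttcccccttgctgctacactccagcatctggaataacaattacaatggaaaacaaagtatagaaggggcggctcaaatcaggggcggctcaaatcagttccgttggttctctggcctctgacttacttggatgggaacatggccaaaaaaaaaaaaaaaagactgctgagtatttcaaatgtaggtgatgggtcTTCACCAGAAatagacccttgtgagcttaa
Pros1 (chr16:62854057-62854356, plus strand): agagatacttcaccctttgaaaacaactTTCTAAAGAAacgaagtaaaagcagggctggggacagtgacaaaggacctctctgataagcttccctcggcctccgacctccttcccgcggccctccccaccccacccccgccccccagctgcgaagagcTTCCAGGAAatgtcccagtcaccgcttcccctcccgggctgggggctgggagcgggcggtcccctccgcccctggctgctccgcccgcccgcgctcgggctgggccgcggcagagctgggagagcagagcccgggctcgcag
Gas6 (chr8:13494486-13494785, minus strand): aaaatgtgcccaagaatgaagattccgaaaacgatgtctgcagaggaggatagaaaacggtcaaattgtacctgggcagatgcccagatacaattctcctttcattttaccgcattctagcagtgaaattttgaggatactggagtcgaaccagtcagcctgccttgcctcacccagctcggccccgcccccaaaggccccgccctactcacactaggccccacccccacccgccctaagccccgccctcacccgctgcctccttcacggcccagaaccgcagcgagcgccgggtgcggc
GAGGAA, a short form of the PU.1 motif, stood in Axl, Marco, Mfge8 and Stab1 and in 28.3% of all promoters. None of the 9 held the interferon-stimulated response element, GAAA repeated after 2 bases (3.44% of all), TGANTCA of AP-1 (7.81%), GAGGAAGT, a longer PU.1 form (3.2%), the E-box CACGTG (7.15%) or the TATA box TATAAA (13.6%). The remaining motifs were common: a loose NF-kB form, GGG and CC with 5 bases between them, stood in 8 of the 9 (50.8% of all), the GC box GGGCGG in 7 (35.7%), and the antioxidant response element, TGA and GC with 5 bases between them (43.7%), and TTNNGNAA of C/EBP (40.7%) in 6 each. The first NF-kB motif is a special case of the loose form, and GAGGAAGT of GAGGAA. A match describes letters in this window and was not tested as a binding site.

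Macrophage libraries held 15683424 to 27904773 expected counts and digits 1468749 to 13011782. Levels are given as deposited normalized TPM (transcript abundance per unit of transcript length, scaled between libraries), and the digit and macrophage tables were scaled separately, so levels are compared within a table only. Adgre1, the F4/80 macrophage marker, was at 573 to 1208 normalized TPM in all 9 macrophage libraries. Nos2 was at 2644 to 2764 in M1 and 5.53 to 6.64 in M2. Arg1 was at 640 to 789 in M2 and also at 392 to 424 in M1. A pair of non-regenerative digits stood apart: the median Spearman correlation with the other digits was 0.634 for replicate 2 at 14 days and 0.687 for replicate 2 at 7 days, against a median of 0.904 over digits. Results that rest on these digits are given with and without them.

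Counts of M1 and M2 libraries were tested against the same 3 M0 libraries, so the 2 comparisons share their controls. The labels give M0 no time in culture, so the stimulus and any difference in culture time cannot be told apart in these 2 comparisons. The part of culture time in changes shared by M1 and M2 was not tested. M1 and M2 carry the same time label, and the comparison between them does not use M0. Called genes are those whose edgeR quasi-likelihood p-value, adjusted over all genes tested by the Benjamini-Hochberg method, was under 0.05 and whose mean changed more than 2-fold. In M1, Marco, Msr1 and Cd36 rose and Gas6, Stab1 and Pros1 fell, which is 3 members called higher and 3 lower of 10. Over all genes, 20.1% were called higher and 26% lower. In M2, Cd36, Msr1 and Axl rose and Gas6 and Stab1 fell, against 11% of all genes called higher and 11.3% lower. The shares of members past the adjusted p-value alone, 10 of 10 in M1 and 9 of 10 in M2, stood beside backgrounds of 85.7% and 75.1%. The median log2 change of the 10 members was -0.09 in M1, where that of all genes was -0.09, and 0.25 in M2, where that of all genes was 0.00.

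**Figure D1:**
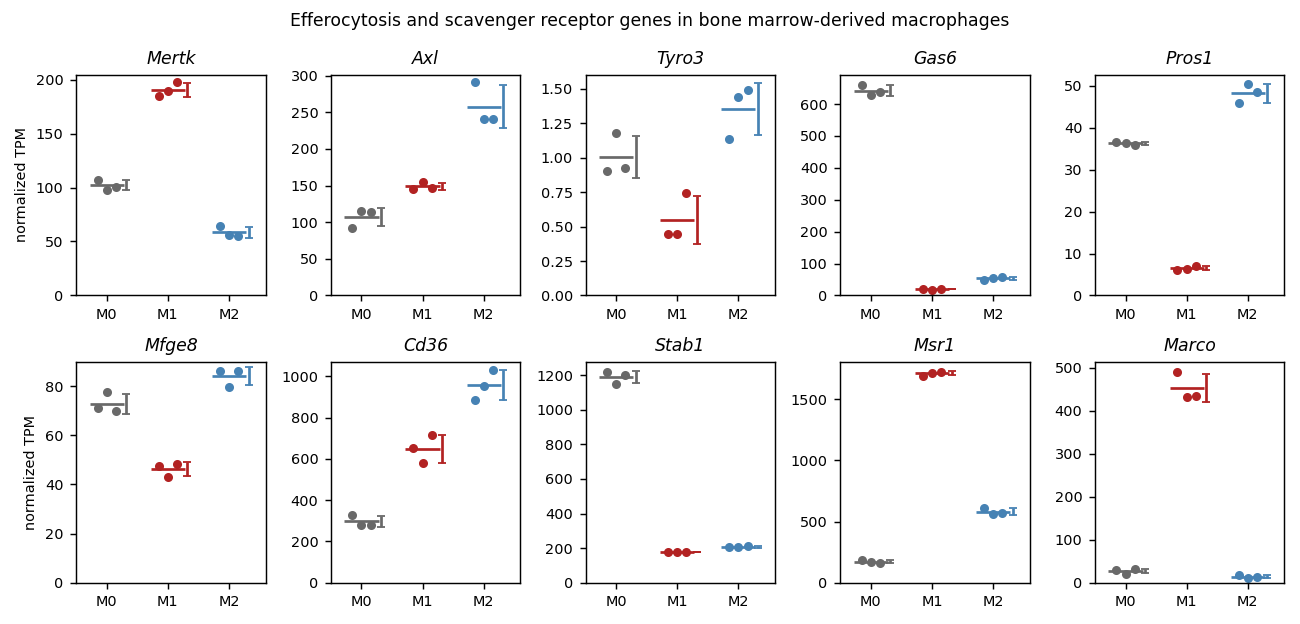
Normalized TPM (linear axis from 0) of each gene in the 3 M0, 3 M1 and 3 M2 libraries; points are libraries, horizontal lines group means and the bars beside them 1 SD. Gas6 and Stab1 were highest in M0, Msr1 and Marco in M1, and Cd36 and Axl in M2.

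In M0 macrophages Stab1 had the highest level of the 10 genes, at a mean of 1190 normalized TPM, followed by Gas6 (642), Cd36 (297) and Msr1 (173). Axl and Mertk came next, and their ranges over the 3 libraries overlapped. Mfge8, Pros1, Marco and Tyro3 followed in that order without overlap. In M1 the order was led by Msr1 (1712), Cd36 (649) and Marco (453), and no neighbours overlapped. In M2 Cd36 led (956), then Msr1 (580) and Axl (258), and the ranges of Mertk, Gas6 and Pros1 overlapped between neighbours.

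Mertk (chr2:128698956-128802894, plus strand) is the receptor through which resting macrophages take up apoptotic cells. It was at 107, 98.1 and 101 normalized TPM in M0, 185, 190 and 198 in M1 and 64.5, 56.1 and 55.5 in M2. The 3 groups did not overlap. M1 was 1.88-fold above M0 (log2 fold change 0.91, SE 0.05, adjusted p = 2.40e-09) and M2 1.81-fold below it (-0.86, SE 0.06, adjusted p = 3.81e-07), both short of the 2-fold threshold. Between M1 and M2 the difference was called, at 3.2-fold (log2 1.68, SE 0.06, adjusted p = 4.18e-12).

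Axl (chr7:25757273-25788705, minus strand), a receptor induced in many inflamed cells, was at 92.6, 115 and 114 in M0, 146, 154 and 146 in M1, and 292, 240 and 241 in M2. All M2 libraries were above all M1 libraries, and these above all M0 libraries. It rose 2.25-fold in M2 (log2 1.17, SE 0.09, adjusted p = 5.77e-07). Its M1 value was 1.36-fold above M0 (log2 0.44, SE 0.08), and this sign depended on the scaling: by library size alone it was -0.33. Tyro3 (chr2:119797733-119818104, plus strand), the family member best known from neurons and epithelia, was near the lower end of detection in all 9 libraries. It ran from 0.903 to 1.18 in M0, 0.445 to 0.745 in M1 and 1.14 to 1.49 in M2, where the M0 and M2 ranges overlapped. M1 against M0 gave -0.80 (SE 0.26, adjusted p = 0.0129), called without replicate 3 of M1 (-1.13), and Tyro3 was 2.42-fold lower in M1 than in M2 (log2 -1.27, SE 0.24, adjusted p = 1.73e-04).

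The ligand Gas6 changed most of the 10 genes in both M1 and M2 against M0. It was at 661, 627 and 638 normalized TPM in M0, 20.6, 18.5 and 20.8 in M1 and 48.5, 55.5 and 57.1 in M2. The 3 groups did not overlap, and both stimulated states lay far below M0. The fall was 31.7-fold in M1 (log2 -4.99, SE 0.06, adjusted p = 1.18e-14) and 12.5-fold in M2 (-3.64, SE 0.07, adjusted p = 2.44e-11). M1 also lay 2.71-fold below M2 (adjusted p = 1.19e-10).

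Pros1 (chr16:62854307-62929346, plus strand), the other ligand, fell in M1 but not in M2. Its levels were 36.7, 36.3 and 35.9 in M0, 6.0, 6.37 and 6.98 in M1 and 45.9, 50.4 and 48.4 in M2. The M1 fall was 5.56-fold (log2 -2.48, SE 0.07, adjusted p = 3.49e-12). M2 lay 1.27-fold above M0 (log2 0.35, SE 0.05, adjusted p = 5.45e-05), under the threshold. M1 against M2 tests that difference directly: Pros1 was 7.54-fold lower in M1 (adjusted p = 4.96e-14). Mfge8 (chr7:79133768-79149060, minus strand) was at 71.0, 77.4 and 69.9 in M0, 47.6, 43.0 and 48.2 in M1, and 86.0, 79.8 and 86.2 in M2. It was not called in any of the 3 comparisons, although M1 was 1.54-fold below M0 (log2 -0.62, SE 0.06, adjusted p = 7.08e-07).

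Among the scavenger receptors, the class A pair rose in M1. Marco (chr1:120474538-120505024, minus strand), whose promoter is printed above, was at 28.7, 21.5 and 31.7 in M0, 490, 433 and 436 in M1, and 18, 11.4 and 14.3 in M2. It rose 16.2-fold in M1 (log2 4.02, SE 0.11, adjusted p = 3.33e-12) and was 29.8-fold higher in M1 than in M2 (adjusted p = 3.34e-14). M2 lay 1.97-fold below M0 (log2 -0.97, SE 0.16), just short of the threshold, and was called lower without replicate 1 of M2 or without replicate 2 of M0. Msr1 (chr8:39581685-39642673, minus strand) was at 185, 173 and 160 in M0, 1695, 1716 and 1726 in M1, and 613, 561 and 567 in M2. It rose in both states, 7.88-fold in M1 (log2 2.98, SE 0.07, adjusted p = 8.48e-13) and 3.32-fold in M2 (1.73, SE 0.07, adjusted p = 4.17e-09).

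Cd36 (chr5:17781690-17888801, minus strand) also rose in both, from 328, 280 and 282 in M0 to 651, 580 and 716 in M1 and 886, 951 and 1032 in M2. The rise was 2.21-fold in M1 (log2 1.15, SE 0.08, adjusted p = 3.30e-08) and 3.09-fold in M2 (1.63, SE 0.07, adjusted p = 8.23e-09). By library size alone the M1 value was 0.37 and was not called. Stab1 went the other way. It fell from 1217, 1151 and 1201 in M0 to 177, 179 and 177 in M1 and 204, 206 and 211 in M2, a fall of 8.63-fold (log2 -3.11, SE 0.05, adjusted p = 9.21e-14) and 5.97-fold (-2.58, SE 0.05, adjusted p = 2.12e-11).

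**Figure D2:**
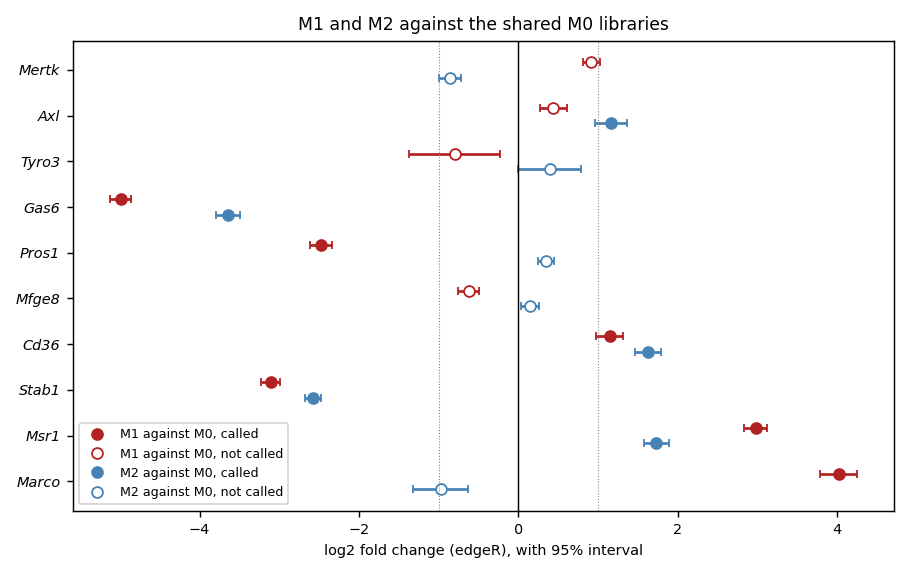
Log2 fold change (x axis) of each gene (y axis) in M1 (red) and M2 (blue) against the same M0 libraries, with 95% intervals; filled points were called, and dotted lines mark a 2-fold change. Gas6 and Stab1 lay below -2 in both states, and the M1 and M2 values of Mertk, Tyro3, Pros1, Mfge8 and Marco lay on opposite sides of 0.

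Between M1 and M2, 3 members were called higher in M1 (Marco, Mertk, Msr1) and 3 lower (Pros1, Gas6, Tyro3), against 20.1% of all genes called higher and 27.9% lower. All 10 passed the adjusted p-value alone, where 87.8% of all genes did. Scaling weighs on every M1 comparison: by library size alone, the median gene moved from -0.09 to -0.86 in M1 against M0 and from -0.08 to -0.70 in M1 against M2. On that scale 2 members were called higher and 5 lower in M1 against M0, and 2 higher and 7 lower in M1 against M2. Mertk in M1 was then 0.14 above M0, and Axl changed sign as given above. Gas6, Stab1, Pros1, Msr1 and Marco kept both direction and call in M1 against M0.

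The other genes of uptake were read from lists, each by its counts and its median, beside the shares of all genes called (20.1% higher and 26% lower in M1, 11% and 11.3% in M2). Counts near those shares say nothing particular of a list. Of 14 other apoptotic cell receptors and bridging proteins tested, 4 rose and 3 fell in M1. Cd300lf, a phosphatidylserine receptor, rose by 2.66 on the log2 scale and thrombospondin 1 (Thbs1), a ligand of CD36, by 2.75, while the stabilin Stab2 changed by -5.55 and the integrin subunit Itgb5, a partner for MFGE8, by -2.82. The list's median was 0.27, beside -0.09 for all genes. In M2, 3 of 15 rose and 1 fell, namely Anxa1 (1.53), Itgb3 (1.5), Calr (1.02) and Stab2 (-1.45). The median was -0.21.

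The engulfment machinery behind these receptors comprised 13 tested genes. In M1, 4 rose and 2 fell: the guanine exchange factor Dock1 changed by -3.75 and the adaptor Gulp1 by -3.45, and the kinase Syk by 1.63 and the exchange factor Vav1 by 1.64. In M2 only Rubcn was called (-1.17) of the 13. Of 9 find-me and do-not-eat-me genes, 3 rose and 2 fell in M1 and 1 rose and 2 fell in M2. The fractalkine receptor Cx3cr1 fell in both (-4.46 in M1, -4.43 in M2), and the scramblase Xkr8 rose in both (2.34 and 1.43).

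Nuclear receptors and cholesterol efflux genes, which handle the lipid load of an engulfed cell, gave 4 rises and 3 falls of 10 in M1 and 3 rises and 2 falls in M2. The efflux transporter Abcg1 rose by 3.64 in M1 and 3.61 in M2 and the liver X receptor Nr1h3 by 3.64 and 2.99. Pparg, a regulator of Cd36, changed by -1.81 in M1 and 1.28 in M2. Of 12 other scavenger receptors, 2 rose and 6 fell in M1 and 1 rose and 4 fell in M2, with medians of -1.21 and -0.41. Cd163 (-7.64 in M1, -3.78 in M2) fell in both. The mannose receptor Mrc1 (-4.11) fell in M1 and Olr1, a receptor for oxidised lipoprotein, rose in M2 (5.12). Clec7a was not analysed here. Adam10 and Adam17, the proteases that shed MERTK and AXL, were not called in either state, with a median log2 change of 0.11 in M1 and 0.39 in M2.

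In digits, the members at 0 hours were led by Gas6, Axl, Pros1 and Mfge8, at means of 109, 102, 84.0 and 76.1 normalized TPM in non-regenerative digits, with each overlapping the next. Tyro3 (31.1), Cd36 (28.4) and Stab1 (26.0) formed a second overlapping group. Mertk (4.07) and Msr1 (2.62) were low, and Marco was at 0 in all 3. The order at 0 hours in intermediate digits was the same except that Mfge8 (80.3) stood before Pros1 (68.8). Tyro3 was thus the lowest member in all 3 macrophage states and the fifth of 10 in digits at 0 hours. The 6 keratinocyte markers, among them Krt14 and Krt15, had a summed level of 21438 to 60073 in digits other than replicate 2 at 14 days, which stands apart and was at 117806. In these bulk tissues fewer cells of a type and less RNA per cell cannot be told apart.

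Each time point was tested against the 0-hour digits of its own group, which all time points of that group share. Only Msr1 at 12 hours in non-regenerative digits was called, 1 of 9 members tested against 11.4% of all genes. All 3 digits at 12 hours are labelled 64, 64 and 67% removed, none of them above the limit of 67% for non-regenerative digits. No member was called at 3 hours (background 0%), 6 hours (4.85%), 24 hours (10.7%), 3 days (0.723%), 7 days (0.0537%), 14 days (0%) or 21 days (0.452%) in non-regenerative digits, nor at 24 hours (0.0152%), 14 days (1.68%) or 21 days (1.39%) in intermediate digits. At an unadjusted p under 0.05 the numbers of members were 0, 3, 2, 5, 2, 2, 1 and 2 along the non-regenerative course and 2, 1 and 2 along the intermediate one. At 24 hours 2 members passed the adjusted p-value without the fold, where 16.8% of all genes did.

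**Figure D3:**
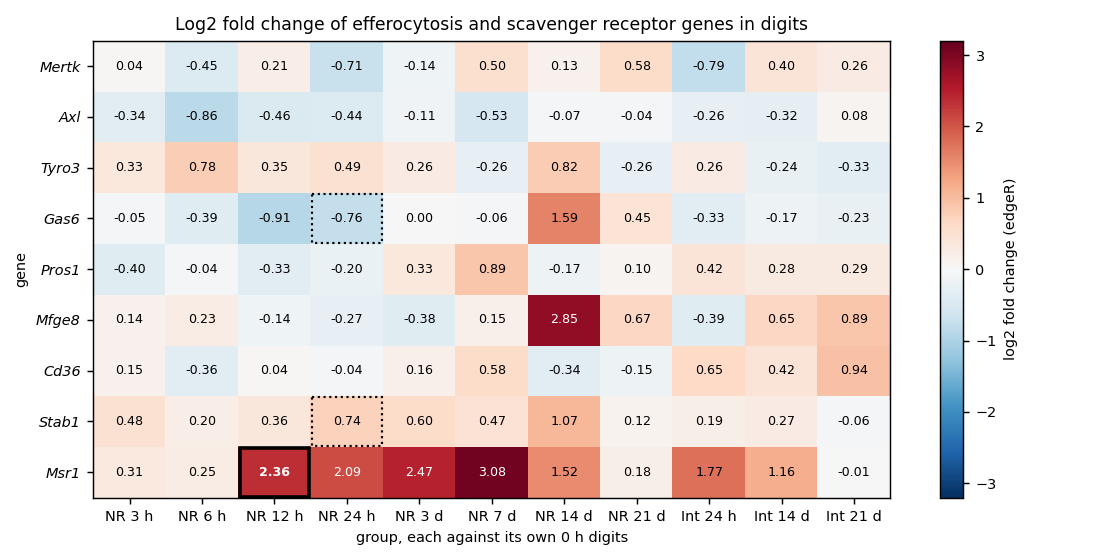
Log2 fold change (colour and printed value) of the 9 tested genes at each time point against the 0-hour digits of the same group, non-regenerative (NR) or intermediate (Int). A solid frame marks the called value of Msr1 at 12 hours (2.36), and dotted frames mark Gas6 and Stab1 at 24 hours, which passed the adjusted p-value alone.

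Msr1 was low at 0 hours and higher in many digits from 12 hours to 14 days, with single high digits at 3 hours (13.7) and 6 hours (11.3). Non-regenerative digits at 0 hours had 3.33, 2.55 and 1.99 normalized TPM, and at 12 hours 6.23, 13.9 and 16.5. The 2 groups did not overlap, and the rise was 5.15-fold on counts (log2 2.36, SE 0.49, adjusted p = 0.0158). It was not called without replicate 3 at 0 hours (adjusted p = 0.0640) or without replicate 3 at 12 hours (adjusted p = 0.0661), nor in 1 fit of all 41 digits. At 24 hours the values were 3.95, 3.09 and 23.0, with 1 digit well above the others, and it was called there without replicate 2 (2.50, adjusted p = 0.0376). At 3 days it was at 17.6, 5.54 and 13.7, all above 0 hours, and was called without replicate 2 (2.85, adjusted p = 0.0209). At 7 days the 5 digits ran from 6.58 to 48.3 with a median of 13.9, again above every 0-hour digit. The highest was replicate 2, which stands apart, and the next was 32.5. At 14 days the levels were 16.7, 0.942 and 7.09, with 2 of 3 above every 0-hour digit and the lowest in the digit that stands apart, and at 21 days they were 2.73, 1.80 and 2.99. The edgeR changes were 2.09 (adjusted p = 0.0660), 2.47 (adjusted p = 0.102) and 3.08 (adjusted p = 0.332) at 24 hours, 3 days and 7 days. DESeq2 called Msr1 at all of these 3 times, with adjusted p = 0.00773, 5.38e-04 and 0.00175.

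The summed levels of macrophage and neutrophil markers were also higher at 12 than at 0 hours. From 0 to 12 hours the summed level of 8 macrophage markers went from 267 to 319 up to 410 to 537 normalized TPM, with 3 of 8 called higher (Cd14, Fcgr1, Itgam). The summed neutrophil markers went from 23.2 to 38.1 up to 444 to 1207, and all 6 tested were called higher, S100a8 by 8.84 on the log2 scale. Their part in the Msr1 result was not tested. All 3 digits at 12 hours carry dates of the earlier period, as does 1 digit at 0 hours. Within that period Msr1 was 1.52 higher at 12 than at 0 hours on the log2(normalized TPM + 1) scale, with 1 digit on the 0-hour side. By label, that digit and replicate 3 at 12 hours share animal mark, date and side and may not be independent.

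In intermediate digits Msr1 was at 0.634, 1.36 and 5.43 at 0 hours and 11.5, 3.62 and 6.71 at 24 hours, with overlap. The change was 1.77 (SE 0.66, adjusted p = 0.270). At 14 days it was 5.76, 3.0 and 1.90 and at 21 days 2.44, 0.788 and 4.89. The change from 0 to 24 hours differed between intermediate and non-regenerative digits by -0.38 on the log2 scale (95% interval -2.86 to 2.09).

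Gas6 and Mfge8 were higher in late than in acute non-regenerative wounds, as the direct test given after their values shows. Gas6 was at 124, 99.4 and 105 normalized TPM in non-regenerative digits at 0 hours. It was at 33.2, 82.8 and 52.4 at 12 hours and 66.2, 73.5 and 46.7 at 24 hours, so that every digit at these times lay below every 0-hour digit. The changes were -0.91 (SE 0.29, adjusted p = 0.0642) at 12 hours, called without replicate 2 there (-1.29, adjusted p = 0.0180), and -0.76 (SE 0.20, adjusted p = 0.0324) at 24 hours, the latter past the adjusted p-value but short of 2-fold. By label date, the 24-hour value on the log2(normalized TPM + 1) scale was -1.15 in the earlier period (2 digits against 1) and -0.47 in the later one (1 against 2).
At 3 days Gas6 was back at 108, 116 and 101. It was at 128, 1028 and 205 at 14 days, the highest value being that of replicate 2, which stands apart, and at 140, 138 and 170 at 21 days, above all 0-hour digits (log2 0.45, SE 0.17, adjusted p = 0.625).

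Mfge8 was at 85.2, 67.8 and 75.3 at 0 hours and 55.8, 46.2 and 62.1 at 24 hours, again without overlap (log2 -0.27, SE 0.19, adjusted p = 0.368). At 14 days it was at 176, 1834 and 117, where the replicate that stands apart was 1 of 3 and the other pair also lay above 0 hours. Normalized TPM in that replicate sum to 3362791, against a median of 947492 over digits, so its levels are scaled up. In CPM, which scale each count by the library's total alone, Mfge8 was at 220, 883 and 137 at 14 days against 112, 69.4 and 68.8 at 0 hours, and Gas6 at 201, 619 and 305 against 205, 144 and 152. At 21 days it was at 119, 86.9 and 129, above all 0-hour digits (log2 0.67, SE 0.21, adjusted p = 0.434). In intermediate digits Mfge8 was at 66.7, 76.0 and 98.1 at 0 hours. Its later levels were 83.6, 162 and 145 (14 days) and 153, 103 and 208 (21 days). The 21-day digits lay above the 0-hour digits, with a log2 change of 0.89 (SE 0.25, adjusted p = 0.12), called without replicate 2 at 21 days (1.111, adjusted p = 0.0404). Gas6 in intermediate digits stayed between 62.0 and 155 over the 4 times, with changes of -0.33 at 24 hours, -0.17 at 14 days and -0.23 at 21 days.

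**Figure D4:**
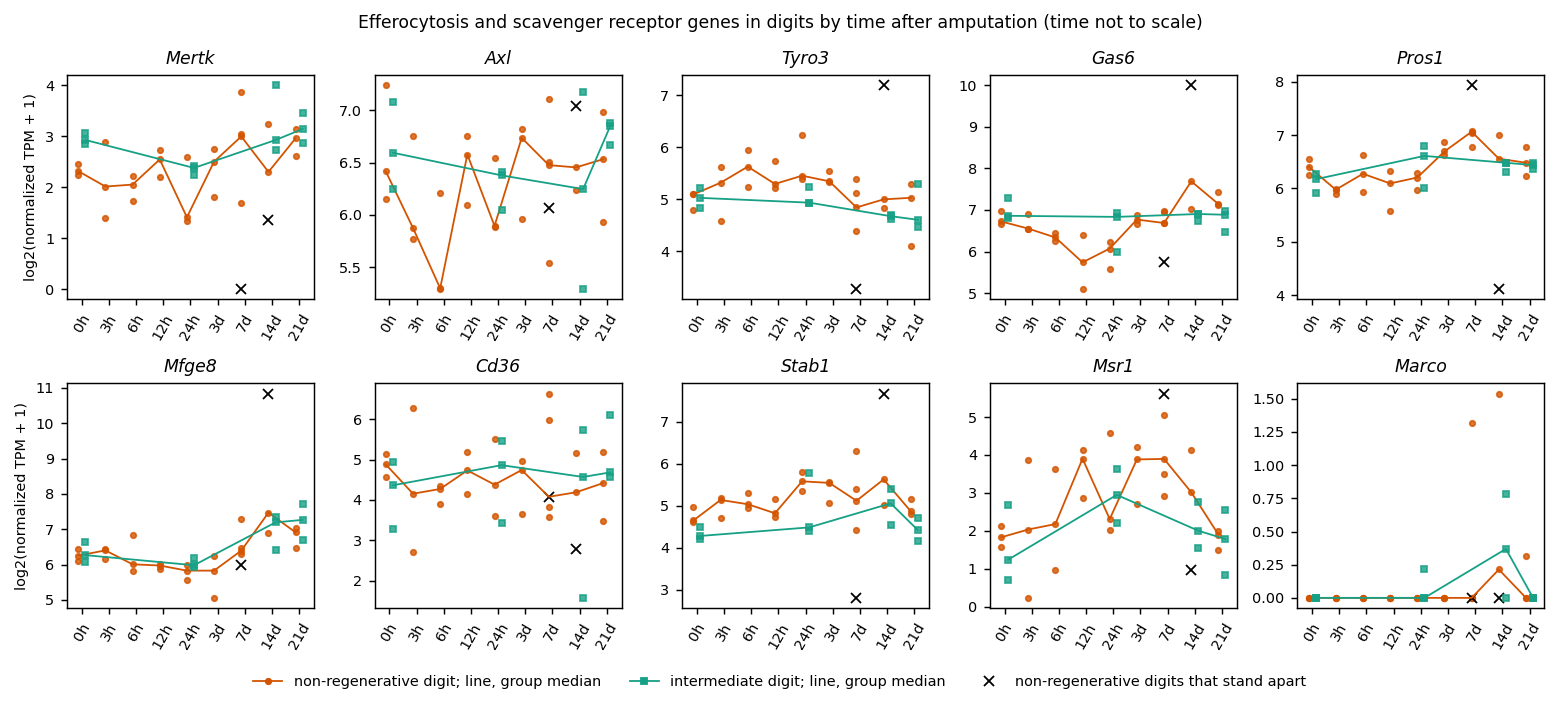
Log2(normalized TPM + 1) of each gene in every digit by time after amputation (categories, not to scale), for non-regenerative (orange) and intermediate (green) digits; lines join group medians and crosses mark the 2 non-regenerative digits that stand apart. The non-regenerative medians of Gas6 were lowest at 12 and 24 hours and those of Msr1 highest at 12 hours, 3 days and 7 days, and Marco was at or near 0. The y axes do not start at 0.

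Over all 9 non-regenerative times in 1 fit of 41 digits, 3 members changed with time at an adjusted p under 0.05: Mfge8 (adjusted p = 1.82e-05), Gas6 (8.21e-05) and Msr1 (0.0115), against 18.9% of all genes. In intermediate digits 0 of 9 did, against 1.05%, and 0 had an unadjusted p under 0.05. Without the 2 digits that stand apart, Tyro3 and Pros1 joined in the non-regenerative course, making 5, and Mfge8 was the 1 called in the intermediate course (adjusted p = 0.0479). Mfge8 was not called in the non-regenerative course without replicate 2 at 14 days (adjusted p = 0.0970). Tyro3 was called without replicate 1 or 3 at 14 days, and Pros1 without replicate 2 or 3 at 14 days or replicate 1 at 7 days.

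A direct test of late (7, 14 and 21 days) against acute (6, 12 and 24 hours) non-regenerative digits called 2 of 9 members, both higher late, where 20.9% of all genes were called. Gas6 ran from 33.2 to 86.3 (median 73.5) in the 9 acute digits and from 53.0 to 1028 (median 128) in the 11 late digits, and was higher late by 1.36 (SE 0.21, adjusted p = 1.64e-05). Mfge8 ran from 46.2 to 114 (median 61.8) and from 62.7 to 1834 (median 117), higher late by 1.30 (SE 0.30, adjusted p = 0.00159). Both remained called without the 2 digits that stand apart, at smaller values of 1.05 for Gas6 (adjusted p = 1.30e-06) and 0.75 for Mfge8 (adjusted p = 0.00255). With the date period as a term the values were 1.26 and 1.57. Most acute digits carry dates of the earlier period and most late digits dates of the later one, so time and date period overlap in part. Leaving out 1 digit at a time gave 0.99 to 1.46 for Gas6 and 0.68 to 1.43 for Mfge8, all of them called.

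Fibroblast markers moved in the same direction: their summed level was 604 to 2712 in acute and 4366 to 34126 in late digits, and 4 of 6 were called higher late. Osteoclast markers did so too, at 28.9 to 101 acute and 169 to 673 late with 3 of 5 tested called higher, and endothelial markers were at 57.3 to 175 and 134 to 754, with 3 of 8 called higher. Neutrophil markers went the other way, with 3 of 7 called lower late and summed levels of 195 to 1452 acute and 9.38 to 2711 late. Without the 2 digits that stand apart, summed late levels were 4615 to 26502 for fibroblast and 143 to 252 for endothelial markers. The late ranges of osteoclast and neutrophil markers were the same without them. Of 8 macrophage markers, 3 were higher (Adgre1, Lyz2, Csf1r) and Cd14 lower. The part of these cells in the Gas6 and Mfge8 results was not tested.

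Of the other members, Tyro3 and Pros1 depended on the 2 digits that stand apart. Tyro3 ran from 36.4 to 74.8 in acute digits and from 8.65 to 147 in late ones, where the 2 extremes are those digits, and from 16.2 to 40.7 without them. The late-minus-acute change was -0.43 (adjusted p = 0.147) with them and -0.69 (adjusted p = 4.32e-04) without. Pros1 ran from 46.4 to 98.3 in acute and 16.3 to 245 in late digits, or 74.2 to 134 without the pair. Its change was 0.49 (adjusted p = 0.131) with them and 0.54 (adjusted p = 5.75e-04) without. Leaving out replicate 2 at 14 days alone gave -0.75 for Tyro3 and 0.63 for Pros1, both called.

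Mertk was low in all digits, from 0 to 15.1 normalized TPM, and at 24 hours 1.54, 1.66 and 5.02 in non-regenerative and 4.20, 3.73 and 4.34 in intermediate digits. The intermediate digits at 24 hours lay below their 0-hour digits at 7.39, 6.62 and 6.21 (log2 -0.79, SE 0.25, adjusted p = 0.214). Late minus acute, Mertk differed by 0.74 (adjusted p = 0.221), or 0.96 (adjusted p = 0.00901) without the 2 digits. Without replicate 2 at 7 days alone, Mertk (0.81) and Axl (0.44) were called. Axl was at 72.9, 38.2 and 38.4 at 6 hours against 151, 70.0 and 84.4 at 0 hours, with overlap (log2 -0.86, SE 0.21, adjusted p = 0.0532). It was called there without replicate 1 at 6 hours, at -1.08 (adjusted p = 0.0390).

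Stab1 was at 30.3, 24.1 and 23.5 at 0 hours and 40.1, 46.8 and 54.9 at 24 hours, without overlap. The change of 0.74 (SE 0.16, adjusted p = 0.0181) passed the adjusted p-value but was under 2-fold. Reads of Nt5dc2, which shares exon bases with Stab1 on the other strand, may enter these values, and this was not tested. In intermediate digits at 24 hours Stab1 was at 53.5, 21.4 and 19.98, so 1 digit lay with the non-regenerative ones and the other pair below all of them. Without that digit Stab1 was called lower in intermediate digits at 24 hours (-1.25, adjusted p = 0.00561). Cd36 spread too widely for its groups to separate, from 1.97 to 98.6 over the 41 digits, and no late-minus-acute difference was detectable (0.18, SE 0.40). Marco was at 0 in 34 of 41 digits and at most 6 counts in the others. In the shallowest library a count of 0 allows up to 0.000204% of counts.

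Intermediate and non-regenerative digits were compared at matched times, and no member was called at 0 hours (background 0%), 24 hours (0%), 14 days (0%) or 21 days (0.648%). By unadjusted p under 0.05, 1 member each stood out at 0 hours (Mertk), 24 hours and 21 days (Gas6), and 0 at 14 days. Gas6 at 24 hours was at 62.0, 120 and 113 in intermediate digits and was 0.65 above non-regenerative digits (SE 0.28, adjusted p = 0.438), with overlap. At 21 days it was at 117, 88.3 and 124, below each non-regenerative digit (-0.51, SE 0.17, adjusted p = 0.234). At 21 days all 3 intermediate digits carry dates of the earlier period and all 3 non-regenerative digits dates of the later one, so group and date period cannot be told apart there, in this comparison or in the difference of changes.

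The test of whether the change from 0 hours differed between the groups called 0 of 9 members at 24 hours, 14 days and 21 days, where the background was 0% each time. At an unadjusted p under 0.05 there were 0, 2 and 0. The pair at 14 days was Mfge8 (-2.15, 95% interval -3.65 to -0.65, adjusted p = 0.563) and Gas6 (-1.73, interval -2.80 to -0.66, adjusted p = 0.563). Without the 2 digits that stand apart these were -0.41 and -0.74. Gas6 was called there without replicate 1 of the non-regenerative digits (-2.15, adjusted p = 0.0344). The labels of intermediate replicate 1 and non-regenerative replicate 3 at 14 days share an animal mark, a date and a side, so that these 2 digits may not be independent. Other labels share mark, date and side across times, among them non-regenerative replicate 1 at 0 hours and replicate 3 at 12 hours.

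Related genes in non-regenerative digits were read from the same lists, beside the 11.4% of all genes called at 12 hours and 10.7% at 24 hours. Of 14 other receptors and bridging proteins tested, 3 rose and 1 fell at 12 hours and 2 rose and 1 fell at 24 hours. Cd300lf rose by 4.41 and 3.27, and annexin A1 (Anxa1), which dying cells expose, by 2.27 and 2.42. Itgb5 fell by 1.18 at 12 hours. Of 13 engulfment genes, 2 rose (the signalling adaptor Tyrobp by 3.15 and Dock2 by 1.67) and Gulp1 changed by -1.89 at 12 hours, and at 24 hours the GTPase Rac1 rose by 1.04. Of the find-me genes the channel Panx1 rose at 24 hours (1.107).
Of 9 nuclear receptor and efflux genes tested, 2 rose and 2 fell at 12 hours and 1 rose and 2 fell at 24 hours. Among them the lipid carrier Apoe fell by 1.125 and 1.41 and Ppard rose by 1.33 and 1.66 at these times. Of 11 or 12 other scavenger receptors tested, Olr1 (3.89) and Cxcl16 (1.16) rose at 12 hours and Scara5 (-1.99) and Scara3 (-1.41) fell at 24 hours.

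From acute to late digits, where 20.9% of all genes were called, 10 of 16 other receptors and bridging proteins were called, 7 higher and 3 lower, with a median of 0.67 beside 0.11 for all genes. Trem2, a lipid receptor of macrophages, was higher late by 3.21 and the complement subunit C1qa by 2.32, while Cd300lf differed by -3.28 and Anxa1 by -1.62. Of 13 engulfment genes 3 were higher late, among them Gulp1 (1.54) and Elmo1 (1.05), and 3 lower, and of 10 nuclear receptor and efflux genes 3 were higher, among them Apoe (1.79), and 1 lower. The do-not-eat-me receptor Sirpa (1.05) and its ligand Cd47 (0.85) were the 2 called of 9. Scarf2 (3.63), Scara3 (1.63) and Colec12 (1.54) were the called genes of 12 other scavenger receptors, all higher late.

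Across the 41 digits, the genes whose levels ran most closely with each member were ranked by Spearman's rho on log2(normalized TPM + 1). Genes with placeholder names were left out of this ranking. The points share library depth and scaling, and these values are a description. Mfge8 ran most closely with Itm2a (0.902), Pdgfrl (0.898) and Fndc1 (0.888), and Gas6 with Olfml1 (0.837), Clec14a (0.830) and Ergic3 (0.829). Mfge8 and Gas6 also ran together (rho 0.730, Pearson's r 0.789, and 0.704 without the 2 digits that stand apart). Msr1 ran with the leukocyte genes Ccr1 (0.785), Cxcr4 (0.770) and Cytip (0.768).

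Mertk ran with Kifap3 (0.841), Fhl5 (0.778) and the scavenger receptor Colec12 (0.768), Axl with Glb1l (0.770), Tns2 (0.766) and Aldh3b1 (0.741), and Tyro3 with Tubb2a (0.837), Eif6 (0.794) and Trex2 (0.790). Pros1 ran with Kctd18 (0.818), Dpysl3 (0.772) and Snx7 (0.768). The weakest leaders were those of Stab1, namely Glrx (0.740), Klk9 (0.684) and Actb (0.680), and of Cd36, namely Reps2 (0.704), Man1a (0.696) and Lyst (0.676). Of the macrophage markers, Csf1r had rho 0.696 with Axl, 0.605 with Mfge8, 0.506 with Mertk, 0.492 with Gas6 and 0.478 with Cd36. Its values were 0.243 with Msr1, 0.163 with Pros1, 0.0915 with Stab1 and -0.178 with Tyro3. The fibroblast marker Col1a1 had 0.832 with Mfge8, 0.686 with Gas6 and -0.527 with Tyro3. The neutrophil marker S100a8 had 0.573 with Msr1, 0.513 with Stab1 and -0.458 with Gas6. For Tyro3 and Mfge8 the measures differed in sign (rho -0.500, Pearson's r 0.196), and rho was -0.681 without the 2 digits that stand apart.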

How the data were processed

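RNA was sequenced from 41 digits and 9 macrophage cultures with poly(A)-selected, single-end libraries. The authors aligned reads with Bowtie 0.12.8 to Ensembl transcripts (release 75, mm10) and estimated abundance with RSEM 1.2.3. The deposited expected counts were rounded here and tested, and the deposited normalized TPM, a signal scaled between libraries by the authors with median-by-ratio factors, gave the levels. Digits and macrophages were normalized in separate tables. In the digit tables, 26 gene names that a spreadsheet had turned into dates were restored.

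Genes were kept with filterByExpr, scaled with TMM and tested pairwise with the quasi-likelihood test of edgeR 4.0.16 in R 4.3.3. Calls needed a p under 0.05 after Benjamini-Hochberg adjustment over all genes tested and a fold above 2 between mean normalized counts plus 1. The courses, the late against acute contrast and the differences of changes came from 1 fit of all 41 digits and were called at the adjusted p alone. DESeq2 1.42.0 was an alternative. The tests were checked on simulated counts with a fixed spread for macrophages and for digits. No simulated digit stood apart from the others, so the check does not cover that case. Other alternatives were scaling, filters, a date period, a replicate block and each library left out.

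All 10 members are described by name, and of other genes those in fixed lists of uptake genes and cell markers with the largest called changes, plus the 3 genes most like each member over 13691 genes with a mean normalized TPM above 1. The members and lists were chosen with earlier results of these data known. Macrophage libraries held 15683424 to 27904773 counts and digits 1468749 to 13011782, which limits low genes such as Marco in digits. Limits from a count of 0 cover counting error only. Clec7a was not analysed here.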

Additional observations from a re-analysis of the deposited data

Results flagged for a closer look

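In the 5 non-regenerative digits at 7 days, 3 values stood far from the others of their group by Dixon's ratio, which chance gives in about 1 of 20 groups. Pros1 was at 245 normalized TPM in replicate 2, the digit that stands apart from the rest across all genes. Mfge8 was at 156 in replicate 4. Marco was at 1.49 in replicate 1, from 1 count, where the other 4 were at 0.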

How the results depend on the processing

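Without the fold threshold, 10, 9 and 10 members passed in M1 against M0, M2 against M0 and M1 against M2, and 2 in non-regenerative digits at 24 hours. DESeq2 called 1 member each at 24 hours, 3 days, 7 days and 14 days, and testing without a filter on low counts 1 at 24 hours. One fit of all 41 digits, with or without the date period, called 0 at 12 hours and 2 at 14 days. RLE factors gave 5 in the non-regenerative course. Leaving out the 2 digits that stand apart, an alternative chosen after seeing the data, gave 5 in the non-regenerative course, 1 in the intermediate course and 5 late against acute. Scaling by library size alone, also chosen after seeing the data, gave 7, 6 and 9 members in the 3 macrophage comparisons, and all genes called higher and lower in M1 against M0 then numbered 1384 and 5890. The causes of these differences were not tested. Leaving out 1 library at a time gave 6 to 7, 5 to 6 and 6 to 6 members in the macrophage comparisons, 0 to 1 at 6 and 24 hours and 3 days, 0 to 2 at 12 hours, 0 to 1 in intermediate digits at 21 days, 0 to 1 between groups at 24 hours, 3 to 5 in the non-regenerative course, 2 to 4 late against acute and 0 to 1 for the difference of changes at 14 days. Of the values of members called in the main fits over all alternatives, 457 kept their call, 7 lost it and 0 reversed. This tally leaves out calls gained, and the setting without a fold threshold could lose none. Many of its values come from fits that each left out 1 of the 41 digits. Msr1 at 12 hours, the only called pairwise result in digits, kept its call in 9 alternatives and lost it in 4.

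Macrophage libraries with the same replicate number did not deviate together (r from -0.09 to 0.10, against -0.09 to 0.11 for other numbers), so the numbers are not taken to pair them. With the replicate block 6, 5 and 6 members were called, as without it. Depth limits Marco, Msr1 and Mertk, the lowest members in digits. All digits at 3 and 12 hours and all intermediate digits at 21 days carry dates of the earlier period, and all non-regenerative digits at 21 days dates of the later one.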
